A study of Mus musculus with 6 samples.

Results

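The mitochondrial ribosomal protein genes of mouse hematopoietic progenitors were compared between Etv6 R355X/+ and wild-type mice. The members are the protein-coding rows of the count table whose symbols begin with Mrpl or Mrps followed by a digit, 78 of 55573 genes, of which 49 are Mrpl and 29 Mrps genes. All 78 passed the filter on low counts, and the smallest rounded count of any member in any library was 314 (Mrpl55). The cells were LSK cells, a lineage-negative fraction of bone marrow positive for Sca-1 and c-Kit that holds stem cells and multipotent progenitors, sorted from C57BL/6J mice aged 3 months. There were 3 wild-type libraries, labelled Etv6+/+, and 3 mutant libraries whose mice carried 1 R355X allele, whose genotype field reads Etv6+/-. Etv6 is a repressor among the ETS transcription factors, and the series title asks how it controls inflammatory genes and progenitor function. The labels do not say whether each library came from a separate animal, so the p-values measure the spread between these libraries, which may be technical. In bulk RNA, fewer cells of a type and less RNA per cell cannot be told apart.

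The mitochondrial ribosome translates the mRNAs of the mitochondrial genome, all of which encode subunits of the respiratory chain and ATP synthase. Its rRNAs are transcribed inside the organelle, whereas every protein of its large and small subunits is encoded in the nucleus, made in the cytosol and imported. Some of these proteins descend from bacterial ribosomal proteins and others are found only in mitochondrial ribosomes. Stem cells are known to carry mitochondria but to rely little on respiration, and mitochondrial translation becomes more important as progenitors divide. In the current assignment, 51 of the members belong to the large subunit and 26 to the small. Mrps18a and Mrps30, despite their symbols, sit in the large subunit. Mrps36 is now known as a subunit of the oxoglutarate dehydrogenase complex and was kept because the symbol rule takes it. The same assignment counts 45 members as counterparts of bacterial proteins and 32 as specific to mitochondria.

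Promoters of these genes are shown first, because Etv6 belongs to the ETS family and ETS, NRF1 and YY1 sites are textbook features of nuclear genes for mitochondrial proteins. RefSeq promoter windows of GRCm38.p6, from 250 bases before to 50 bases after a transcript start, were found for 69 members. For genes with several windows the one nearest the start of the principal transcript was taken. The letters searched on both strands were CCGGAAG for ETS factors, TGCGCAT for NRF1 and AAGATGG for YY1, the last 2 being the cores of longer motifs, and no printed match overlaps another. The windows of 4 members follow, each 5′ to 3′ along the gene with matches in capitals. Mrps21 (chr3:95871465-95871764, minus strand) and Mrpl33 (chr5:31613701-31614000, plus strand) are the members with the smallest unadjusted p among those higher in the mutant. Mrps18a (chr17:46110754-46111053, plus strand) holds both an ETS and a YY1 match, and Mrps5 (chr2:127587176-127587475, plus strand) had the lowest fold change of all members.
Mrps21: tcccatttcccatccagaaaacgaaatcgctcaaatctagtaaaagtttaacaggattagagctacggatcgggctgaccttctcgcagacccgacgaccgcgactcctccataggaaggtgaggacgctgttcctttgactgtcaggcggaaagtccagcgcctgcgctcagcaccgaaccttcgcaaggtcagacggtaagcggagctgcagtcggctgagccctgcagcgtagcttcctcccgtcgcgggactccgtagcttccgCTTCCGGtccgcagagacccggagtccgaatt
Mrpl33: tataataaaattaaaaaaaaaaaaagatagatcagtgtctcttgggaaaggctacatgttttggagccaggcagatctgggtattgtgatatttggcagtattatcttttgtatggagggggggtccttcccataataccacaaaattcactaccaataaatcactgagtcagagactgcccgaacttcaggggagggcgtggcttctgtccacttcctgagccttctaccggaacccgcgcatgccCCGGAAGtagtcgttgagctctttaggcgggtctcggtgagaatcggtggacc
Mrps18a: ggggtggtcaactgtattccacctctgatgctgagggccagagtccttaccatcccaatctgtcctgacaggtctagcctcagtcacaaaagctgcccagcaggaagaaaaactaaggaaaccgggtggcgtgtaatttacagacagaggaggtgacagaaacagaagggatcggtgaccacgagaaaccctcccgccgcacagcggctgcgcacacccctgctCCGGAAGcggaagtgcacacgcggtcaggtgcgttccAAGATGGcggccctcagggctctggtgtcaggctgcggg
Mrps5: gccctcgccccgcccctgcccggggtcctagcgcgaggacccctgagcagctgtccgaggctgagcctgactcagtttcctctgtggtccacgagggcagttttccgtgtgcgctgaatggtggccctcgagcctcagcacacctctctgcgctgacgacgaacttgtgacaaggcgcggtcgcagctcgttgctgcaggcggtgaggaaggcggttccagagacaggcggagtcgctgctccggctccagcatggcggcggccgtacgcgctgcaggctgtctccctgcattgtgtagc

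The ETS letters lie 18 bases after the start in Mrps21, on the strand opposite to the gene, and 3 bases before it in Mrpl33, on the strand of the gene. The window printed for Mrps5 holds no match to any of these letters, but its start lies 204 bases inside the gene from that of the principal transcript, so it covers little of the sequence before that transcript. Mrps18a has its ETS match 26 bases before the start and its YY1 match 11 bases after it. Of the 69 member windows, 25 (36.2%) held the ETS letters, against 17.3% of the 11628 windows of all tested genes and 17.9% of those of protein-coding genes. The NRF1 letters were in 8 windows (11.6%, against 4.70% of all) and the YY1 letters in 13 (18.8%, against 7.05%). At least 1 of these matches was present in 38 member windows (55.1%) and in 26.4% of all windows. A match describes the letters in this window and does not show that a factor binds there. Median log2 fold changes were 0.082 for members with the ETS letters and 0.014 for those without. With and without the YY1 letters they were 0.073 and 0.028, so a higher median was not particular to the ETS letters. The members' medians in single libraries had a pooled SD of 0.085 (log2) within genotypes. Whether any of these letters goes with the fold change was not tested. The NRF1 and YY1 shares and medians depend on the letters chosen, which were shortened after longer forms had been searched. No fold change is given for the NRF1 letters because its direction differed between the forms.

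Many members share their promoter region with another gene. A protein-coding gene on the other strand started within 1000 bases upstream, or overlapped the start by up to 200 bases, for 23 members (29.5%). The same held for 11.7% of the 13699 tested protein-coding genes. Partners included the mitochondrial seryl-tRNA synthetase gene Sars2, whose start lies 172 bases from that of Mrps12. Their log2 fold changes were -0.098 (unadjusted p = 0.541) for Sars2 and 0.22 (unadjusted p = 0.124) for Mrps12, edgeR's quasi-likelihood test. The ribosomal protein gene Fau starts 59 bases from Mrpl49, with values of 0.23 (unadjusted p = 0.0175) and 0.092 (unadjusted p = 0.399). The members are spread over 17 chromosomes, with 11 on chromosome 11.

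Levels of the mitochondrial ribosomal protein genes were close to each other between the genotypes. No member was called by quasi-likelihood testing in edgeR with Benjamini-Hochberg correction over the 20646 tested genes (0 of 78, where 0.266% of all tested genes passed, 0.189% higher and 0.0775% lower), and the smallest adjusted p of a member was 0.264, that of Mrps21. At an unadjusted p under 0.05 there were 3 members (3.85%), 2 higher (5.83% of all tested genes) and 1 lower (4.8% of all), against 10.6% of all tested genes in either direction. DESeq2 and limma-voom also called 0 members. Log2 fold changes ran from -0.21 (Mrps5) to 0.33 (Mrps21), and 51 members lay within 0.1 of 0. The median over the 78 was 0.030, with 48 members (61.5%) above 0, and over all tested genes it was 0.0019, with 50.6% above 0.

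The intervals describe the size of the differences as far as the spread between these libraries measures it, and that spread may be technical. CPM are counts scaled to a common library total after TMM normalisation, and the interval of a fold change is an approximate 95% interval from the standard error and degrees of freedom of the fit. For all 78 members this interval lay within 1.5-fold either way. Among all tested genes the share was 54.2%. The lowest lower bound was 0.717-fold (Mrps34) and the highest upper bound 1.46-fold (Mrps21). These are intervals of single genes and were not widened for the number of members. The members are counted deeply and varied little between libraries of a genotype, with a median coefficient of variation of 8.80% against 12.9% over all tested genes. It was smallest for Mrps17 (2.15%) and largest for Mrps11 (22.02%).

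**Figure D1:**
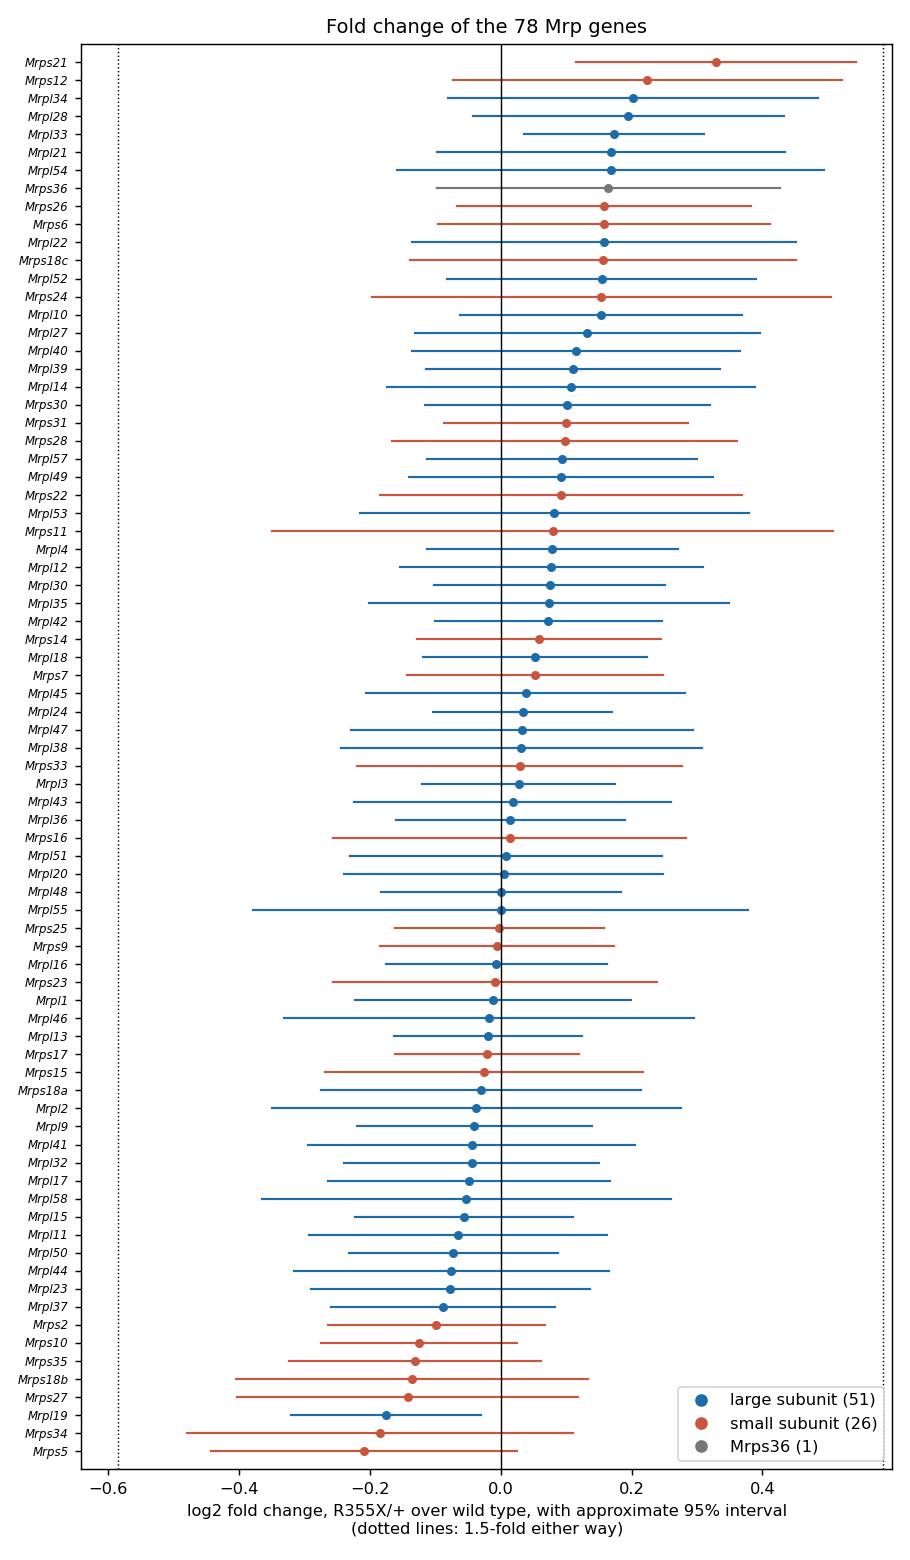
Log2 fold change of each of the 78 genes (points) with its approximate 95% interval (lines), sorted by fold change and coloured by ribosomal subunit. The dotted lines mark 1.5-fold either way, and every interval lies between them, from Mrps5 at -0.21 to Mrps21 at 0.33.

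Among the large subunit genes, Mrpl33, which encodes a small protein with a bacterial counterpart, measured 56.8, 55.0 and 58.5 CPM in wild-type replicates 1, 2 and 3 and 66.6, 63.4 and 61.9 CPM in mutant replicates 1, 2 and 3. All mutant values lay above all wild-type values, by a fold of 1.13 (interval 1.02 to 1.24, log2 fold change 0.17, SE 0.062). This was no call in edgeR (unadjusted p = 0.0184, adjusted p = 0.375). With an offset for the trend with transcript length and GC content the log2 fold change of Mrpl33 was 0.035 (unadjusted p = 0.577). Mrpl33 lies on chromosome 5 from 31596935 to 31664384 (ENSMUSG00000106918.3). It shares 177 bases of its 478-base principal transcript with Gm43809, a noncoding gene on the same strand, so part of its count may depend on how reads were split. Mrpl19, the counterpart of a bacterial protein at the interface of the subunits, measured 59.5, 66.3 and 66.2 CPM in the wild-type libraries and 57.3, 55.5 and 57.3 CPM in the mutant. Here each mutant library was under each wild-type library, at a fold of 0.886 (interval 0.801 to 0.980, log2 fold change -0.18, SE 0.066), which did not pass either (unadjusted p = 0.0227, adjusted p = 0.396, edgeR's quasi-likelihood test). Mrpl19, on chromosome 6 from 81957851 to 81965958 (ENSMUSG00000030045.10), overlaps 1962 bases of exons of Gcfc2 on the opposite strand. With unstranded counts the reads of this stretch cannot be assigned by strand. Gcfc2 itself had a log2 fold change of 0.16 (unadjusted p = 0.114).

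Of the other large subunit genes taken by the smallest p, all were higher in the mutant on average and 2 of the 3 overlapped between genotypes. Mrpl28 measured 21.6, 22.4 and 24.7 CPM in the wild-type libraries and 29.8, 25.2 and 23.4 CPM in the mutant (log2 fold change 0.19, unadjusted p = 0.0987, adjusted p = 0.573). Mrpl34 measured 25.8, 26.3 and 28.1 CPM in the wild-type libraries and 37.5, 29.1 and 25.4 CPM in the mutant (0.20, unadjusted p = 0.143, adjusted p = 0.631). In both genes mutant replicate 1 was the highest library, and mutant replicate 3 lay within or below the wild-type range. Mrpl10, a protein of the base of the stalk that recruits translation factors, measured 20.6, 20.4 and 20.6 CPM in the wild-type libraries and 25.3, 22.1 and 20.96 CPM in the mutant (0.15, unadjusted p = 0.144, adjusted p = 0.631). Its mutant values did not overlap with wild type, although the gap between the closest libraries was small. Without mutant replicate 1 the log2 fold changes in Mrpl28, Mrpl34 and Mrpl10 were 0.090, 0.030 and 0.070, and that of Mrpl34 was 0.32 without mutant replicate 3. Of the 51 large subunit genes, 33 lay above 0, with a median of 0.031.

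Among the small subunit genes, Mrps21, the counterpart of a small basic protein of the bacterial small subunit, measured 20.4, 20.7 and 23.9 CPM in the wild-type libraries and 29.2, 26.4 and 25.9 CPM in the mutant. Every mutant library lay above every wild-type library, at a fold of 1.26 (interval 1.08 to 1.46, log2 fold change 0.33, SE 0.097). It had the smallest p of all members and did not pass over all genes (unadjusted p = 0.00627, adjusted p = 0.264, edgeR's quasi-likelihood test). The gene lies on chromosome 3 from 95862634 to 95871519 (ENSMUSG00000054312.6) and no other annotated gene overlaps its exons. Its log2 fold change was between 0.27 and 0.40 when any single library was left out. It was 0.19 (unadjusted p = 0.0564) when each library's trend with transcript length and GC content was taken into account.

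Mrps12, the counterpart of the bacterial decoding-centre protein in which streptomycin resistance mutations arise, measured 14.3, 17.1 and 16.7 CPM in the wild-type libraries and 22.3, 16.7 and 17.1 CPM in the mutant (log2 fold change 0.22, unadjusted p = 0.124, adjusted p = 0.606). Only mutant replicate 1 lay above the wild-type range. The log2 fold change of Mrps12 was 0.073 without that library and 0.15 without wild-type replicate 1. Mrps5, whose bacterial counterpart affects the accuracy of decoding, measured 37.1, 38.5 and 39.5 CPM in the wild-type libraries and 27.6, 34.7 and 37.4 CPM in the mutant (-0.21, unadjusted p = 0.0741, adjusted p = 0.528). Mutant replicate 1 was again the library farthest from the others, here on the low side, and mutant replicate 3 overlapped with wild type. Without mutant replicate 1 the log2 fold change of Mrps5 was -0.089.

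Mrps10, a protein of the head of the small subunit, measured 42.4, 41.2 and 42.4 CPM in the wild-type libraries and 39.0, 36.7 and 39.9 CPM in the mutant (log2 fold change -0.12, unadjusted p = 0.0920, adjusted p = 0.559). Its groups did not overlap, with the mutant libraries on the low side. Mrps2 measured 38.3, 40.7 and 41.7 CPM in the wild-type libraries and 39.4, 34.9 and 38.4 CPM in the mutant (-0.098, unadjusted p = 0.220, adjusted p = 0.696). Mrps35, specific to mitochondria, measured 29.1, 34.4 and 34.3 CPM in the wild-type libraries and 30.5, 29.4 and 29.3 CPM in the mutant (-0.13, unadjusted p = 0.162, adjusted p = 0.647). In both genes the groups overlapped. The log2 fold change of Mrps2 was -0.047 without mutant replicate 2, and that of Mrps35 was -0.21 without wild-type replicate 1. Mrps34, also specific to mitochondria, measured 10.3, 11.98 and 12.7 CPM in the wild-type libraries and 11.2, 10.3 and 9.16 CPM in the mutant (-0.18, unadjusted p = 0.194, adjusted p = 0.671). That of Mrps34 was -0.12 without wild-type replicate 3 and -0.11 without mutant replicate 3. The exons of Mrps34 overlap those of Mapk8ip3 on the opposite strand over 62.7% of its principal transcript, and of the 26 small subunit genes 14 lay above 0, with a median of 0.021.

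**Figure D2:**
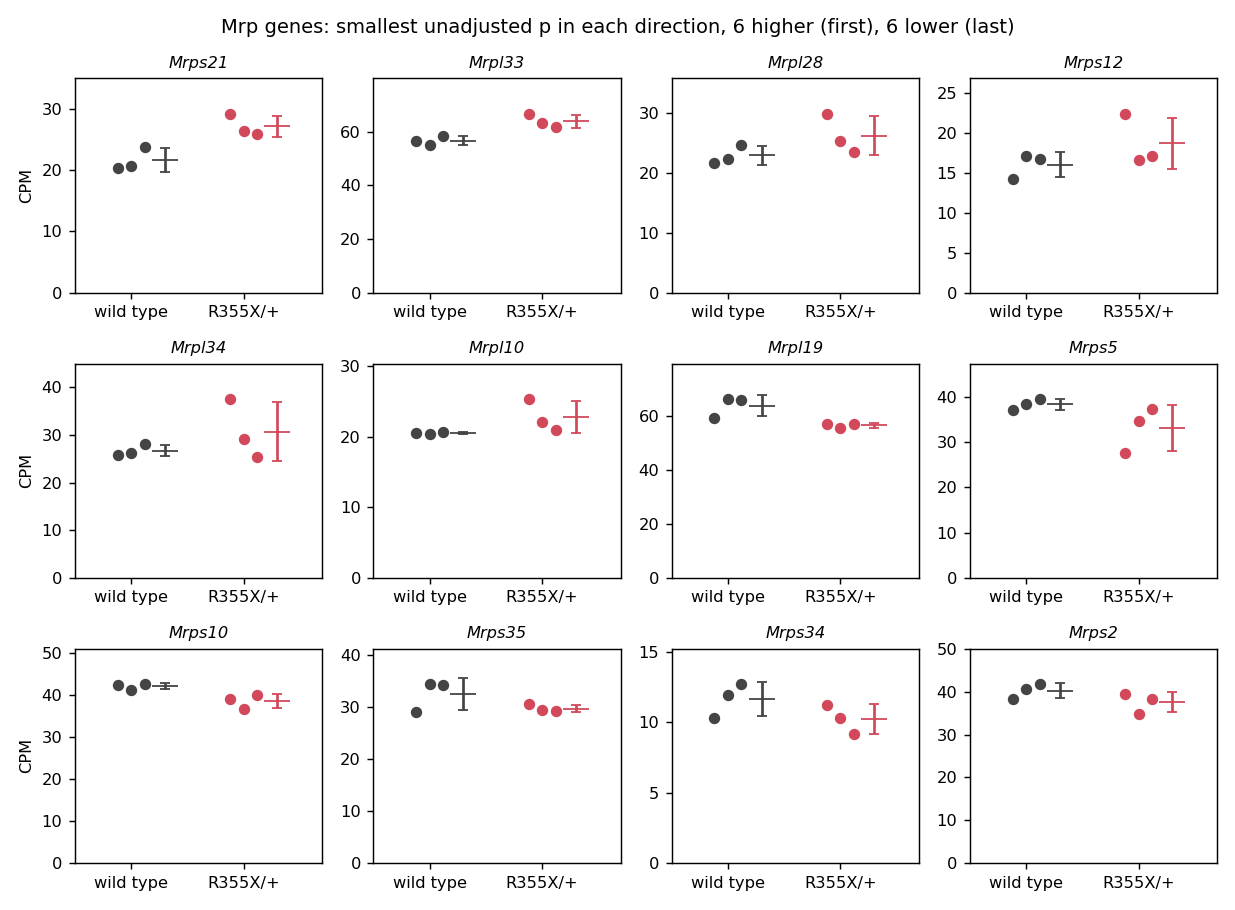
CPM of 12 members, the 6 with the smallest unadjusted p among those higher in the mutant and the 6 among those lower, with 1 point per library and the mean ± SD of each genotype beside the points (each axis starts at 0). Only Mrps21, Mrpl33, Mrpl10, Mrpl19 and Mrps10 show genotypes that do not overlap.

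Genotypes did not overlap in 7 members (8.97%), 4 higher (8.45% of all tested genes) and 3 lower (7.84% of all), against 16.3% of all tested genes in either direction. Besides the 5 members shown these were Mrps31, higher in the mutant at 21.6 ± 0.481 and 23.2 ± 0.734 CPM in the wild-type libraries and mutant (SD, n = 3), and Mrpl37, lower at 29.3 ± 0.374 and 27.6 ± 1.17 CPM, named because of this count. Members with bacterial counterparts had a median log2 fold change of 0.034, with 28 of 45 above 0. Members specific to mitochondria had a median of 0.013, with 19 of 32 above 0. All 3 members with an unadjusted p under 0.05 were bacterial homologues.

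The paralogs Mrps18a, Mrps18b and Mrps18c occupy different places in the ribosome, and here Mrps18c is counted as a bacterial homologue and the others as mitochondria-specific. Mrps18a, of the large subunit, measured 17.1, 18.5 and 20.01 CPM in the wild-type libraries and 19.8, 16.2 and 18.4 CPM in the mutant (log2 fold change -0.030, adjusted p = 0.957, edgeR's quasi-likelihood test). Mrps18b measured 16.3, 19.0 and 22.5 CPM in the wild-type libraries and 17.2, 17.2 and 18.1 CPM in the mutant (-0.14, adjusted p = 0.746). Mrps18c measured 10.4, 10.1 and 10.8 CPM in the wild-type libraries and 13.6, 10.9 and 10.4 CPM in the mutant (0.16, adjusted p = 0.731). Genotypes overlapped in all 3. Single libraries moved each value: Mrps18a was 0.027 without wild-type replicate 3 and 0.046 without mutant replicate 2, against -0.085 without wild-type replicate 1 and -0.099 without mutant replicate 1. Mrps18b was -0.0093 without wild-type replicate 3 and -0.24 without wild-type replicate 1, and Mrps18c was 0.027 without mutant replicate 1. Per kb of principal transcript the 3 paralogs were at 20.8 ± 1.69, 17.1 ± 2.03 and 17.3 ± 2.01 CPM (mean ± SD over the 6 libraries). On this scale Mrps18b and Mrps18c differed by less than that spread. With the mean length of a gene's coding transcripts the 3 were at 24.4, 25.8 and 17.2 CPM per kb. Their order thus depends on the length used. Over 59.1% of its principal transcript Mrps18b overlaps the antisense gene Gm16279.

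Levels per transcript length spanned 25.3-fold among members, from 4.98 to 126 CPM per kb, around a median of 15.3. Mrpl33 was highest, at 126 ± 9.16 CPM per kb over the 6 libraries, well apart from the next genes. Mrpl42, at 58.5 ± 3.68, and Mrpl52, at 58.1 ± 6.12 CPM per kb, both mitochondria-specific proteins of the large subunit, did not differ beyond their spread. At the low end stood Mrpl58, at 4.98 ± 0.628 CPM per kb, a peptidyl-tRNA hydrolase that frees stalled mitochondrial ribosomes. Next to it were Mrpl1, a protein of the stalk near the tRNA exit site, at 5.40 ± 0.255 and Mrpl48 at 5.47 ± 0.132 CPM per kb, and the ranges of 1 SD around these 3 means overlapped. Between these ends, 54 members lay within 2-fold of the median. The medians of large and small subunit genes were 14.9 and 15.4 CPM per kb, and those of bacterial homologues and mitochondria-specific members 18.7 and 12.54. Per kb, the median cytosolic ribosomal protein gene was at 572 and the median nuclear gene for a respiratory chain or ATP synthase subunit at 44.3 CPM.

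The per-kb scale rests on the length of a single transcript, which RSEM's own estimate need not share. With the mean length of a gene's coding transcripts the order of the members was similar (Spearman's rho 0.874 across the 78 genes, a description, since both scales share the same counts), Mrpl33 stayed highest and Mrps26, at 5.53 CPM per kb, was lowest. Single genes moved far, with Mrpl48 at 15.6 and Mrps17 at 33.7 CPM per kb, against 5.47 and 8.71 by principal transcript. Mrpl58 and Mrpl1 stayed low, at 6.62 and 6.75 CPM per kb by mean length. On that scale the large subunit median, 17.7 CPM per kb, was above the small subunit median, 16.6, which reverses their order. The medians of bacterial homologues and mitochondria-specific members, 20.9 and 13.6, kept theirs.

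**Figure D3:**
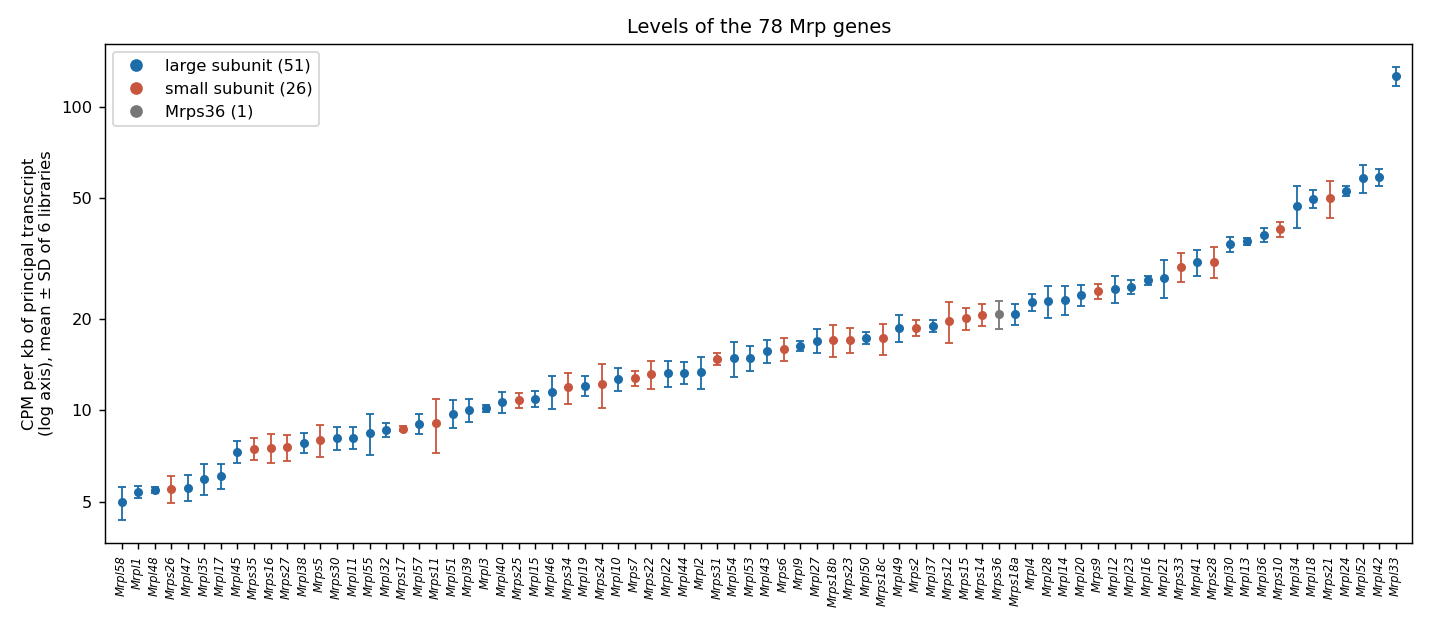
CPM per kb of principal transcript of the 78 genes on a log axis, as the mean ± SD of all 6 libraries, ordered from Mrpl58 at 4.98 to Mrpl33 at 126 and coloured by subunit. The 3 highest and the 3 lowest genes all belong to the large subunit.

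Differences between libraries of a genotype were larger than the difference between genotypes for the members as a set. Together the 78 genes took 1965, 2085 and 2190 CPM in wild-type replicates 1, 2 and 3 and 2247, 2048 and 2045 CPM in mutant replicates 1, 2 and 3. Mutant replicate 1 was thus the highest and wild-type replicate 1 the lowest library, and the other mutant libraries lay inside the wild-type range. The median deviation of a member from its own mean over the 6 libraries was -0.11, -0.0051 and 0.056 (log2) in wild-type replicates 1, 2 and 3 and 0.11, -0.037 and -0.039 in mutant replicates 1, 2 and 3. Mutant replicate 1 was the highest library for 42 of 78 members, and wild-type replicate 1 the lowest for 35. In 56 members the correlation with the mean of the other members over the 6 libraries was above 0.5 (median r 0.740). This is a description in which all genes share the same 6 libraries and their scaling. Mutant replicate 1 was also the deepest library, and the part of depth in this pattern was not tested. Mrpl9, Mrps5 and Mrpl37 went most against the rest, with r of -0.60, -0.59 and -0.45.

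The sign of the median rested on single libraries. It was -0.020 with 32 members above 0 without wild-type replicate 1, -0.028 with 35 above 0 without mutant replicate 1, and 0.088 with 60 above 0 without wild-type replicate 3. Without wild-type replicate 1 and mutant replicate 1 together, a setting chosen after the data were seen, it was -0.060 with 20 members above 0. Without wild-type replicate 3 and mutant replicate 1 together, a setting chosen likewise, it was 0.019 with 46 above 0. With library size alone in place of TMM, which moved the median of all genes to -0.034, it was -0.0078 with 36 above 0. No member passed the adjusted threshold in any of these fits.

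**Figure D4:**
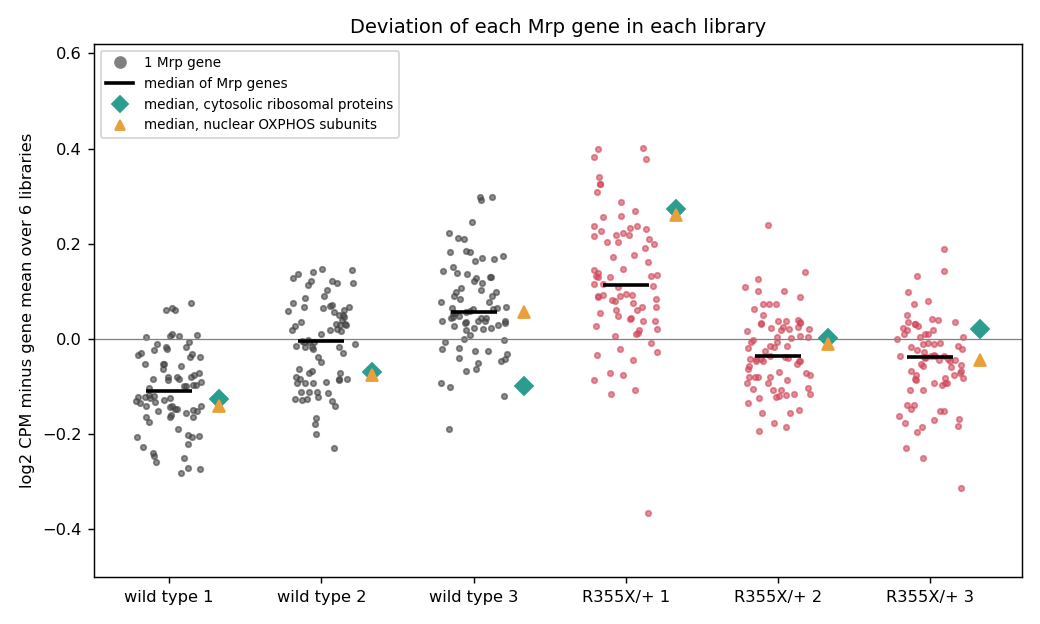
Deviation of each of the 78 genes from its own mean over 6 libraries (points, log2 CPM), with the median of the members as a bar and the medians of cytosolic ribosomal protein and nuclear respiratory chain genes as a diamond and a triangle. The members' bar is highest in mutant replicate 1, at 0.11, and lowest in wild-type replicate 1, at -0.11, while the other mutant libraries lie between the wild-type bars.

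Shorter members tended to be higher in the mutant. Across the 78 genes log2 fold change and log2 transcript length had a Pearson r of -0.44 and a Spearman rho of -0.43, a description across genes that share libraries and are not independent. The 25 members with principal transcripts under 1000 bases had a median of 0.11 with 20 above 0, close to the median of 0.12 over the 920 tested protein-coding genes of that length. The 32 members between 1000 and 2500 bases had a median of 0.030, and all such protein-coding genes 0.014. The 21 members over 2500 bases had a median of -0.0021, and all such protein-coding genes -0.030. Members are short, at a median of 1302 bases against 2940 bases for tested protein-coding genes, and their GC content is similar, at 50.4% against 50.2%. With an offset for each library's trend with length and GC content the members' median was 0.010 and the log2 fold change of Mrpl19 was -0.15.

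**Figure D5:**
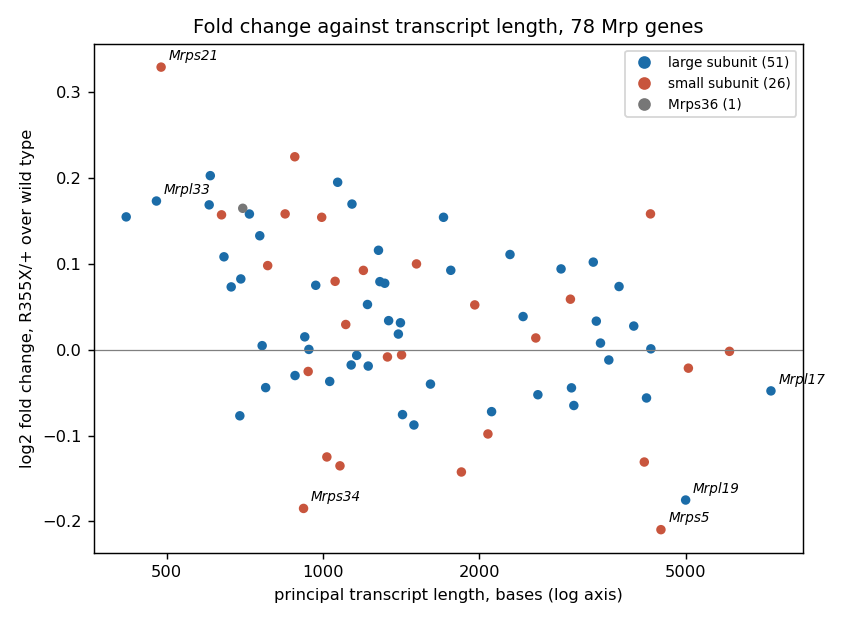
Log2 fold change of the 78 genes against the length of the principal transcript (log axis), coloured by subunit. The shortest members, Mrps21 and Mrpl33 among them, lie mostly above 0, and Mrps5 and Mrpl19, of 4481 and 5000 bases, lie at -0.21 and -0.18.

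Overlap with other genes bears on these counts, since they were made without strand information. Exons of 33 members overlap exons of another annotated gene, in 28 members on the opposite strand and in 8 on the same strand. The 45 members without any such overlap had a median log2 fold change of 0.013, and the 33 with overlap 0.034. Mrpl53 is the extreme case, since its whole principal transcript lies within exons of Gm42688, a gene annotated as protein-coding on the same strand. In Mrps25, 75.6% of the transcript overlaps Nr2c2, and Mrps25 measured 65.8 ± 1.73 and 65.7 ± 5.65 CPM in the wild-type libraries and mutant (SD, n = 3). The table also lists 5 processed pseudogenes named after members, of Mrps36, Mrpl23 and Mrpl48. The largest, Mrpl23-ps1, held 482 to 1111 expected counts per library, so the split of reads between Mrpl23 and this copy is uncertain.

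The other proteins of mitochondrial translation likewise had 0 calls in edgeR. None of the 5 further ribosomal proteins without an Mrp symbol had an unadjusted p under 0.05, and their median log2 fold change was 0.0050. Aurkaip1 measured 27.2 ± 2.33 and 29.6 ± 3.41 CPM in the wild-type libraries and mutant, and the GTP-binding protein gene Dap3 35.4 ± 2.07 and 34.0 ± 0.516 CPM (SD, n = 3). Of 28 assembly factors of the mitochondrial ribosome 5 lay above 0, with a median of -0.060 and no unadjusted p under 0.05. Fastkd2, which binds the large mitochondrial rRNA, measured 21.4 ± 0.595 and 18.9 ± 0.719 CPM, without overlap between genotypes (unadjusted p = 0.0748, adjusted p = 0.531). Rcc1l, needed for assembly of the large subunit, measured 12.6 ± 0.697 and 10.96 ± 1.59 CPM.

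Translation factors had a median of 0.030 over 17 tested genes, 9 of them above 0. Mtrf1l, a release factor, measured 18.1 ± 0.337 and 20.5 ± 2.18 CPM in the wild-type libraries and mutant, and Lrpprc, which stabilises mitochondrial mRNAs, 89.0 ± 9.61 and 80.4 ± 3.96 CPM. Mitochondrial aminoacyl-tRNA synthetases had a median of -0.047, with 7 of 20 above 0. At an unadjusted p under 0.05, 1 of the 20 was lower, against 4.8% of all tested genes. That gene, Cars2, for cysteine, measured 35.1, 36.2 and 34.3 CPM in the wild-type libraries and 29.5, 28.4 and 30.7 CPM in the mutant (log2 fold change -0.25, unadjusted p = 0.00593, adjusted p = 0.261, edgeR's quasi-likelihood test). Its genotypes did not overlap. Lars2, for leucine, measured 1606 ± 119 and 1868 ± 315 CPM. Its level per kb of transcript, 446 CPM, stood far above the median of 7.01 for these synthetase genes. Whether all reads counted for Lars2 come from this gene was not tested. Genes of mitochondrial transcription and RNA processing had a median of -0.036 over 21 tested genes, with 0 at an unadjusted p under 0.05. The helicase gene Supv3l1 was at 19.4 ± 1.41 and 17.7 ± 0.163 CPM and the nuclease gene Pnpt1 at 44.0 ± 1.06 and 41.4 ± 2.31 CPM.

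Among 11 regulators of nuclear genes for mitochondrial proteins 3 were lower at an unadjusted p under 0.05 and 0 higher. Of all tested genes 4.8% were lower and 5.83% higher at that level. The median of the 11 regulators was -0.086. Myc measured 274, 352 and 277 CPM in the wild-type libraries and 234, 219 and 240 CPM in the mutant (log2 fold change -0.38, unadjusted p = 0.00199, adjusted p = 0.181, edgeR's quasi-likelihood test). The coactivator gene Pprc1 measured 69.1, 77.3 and 80.3 CPM in the wild-type libraries and 55.9, 63.3 and 72.3 CPM in the mutant (-0.24, unadjusted p = 0.0267, adjusted p = 0.410). The Myc libraries did not overlap and those of Pprc1 did. The log2 fold change of Myc was -0.25 without wild-type replicate 2, and that of Pprc1 was -0.16 without mutant replicate 1. DESeq2 called Myc (adjusted p = 0.00984), as did edgeR without a filter on low counts (adjusted p = 0.000836).

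The templates of mitochondrial translation, the mitochondrial genome mRNAs, had a median of -0.090 over 11 tested genes, with mt-Nd2 at 263 ± 30.9 and 235 ± 15.0 CPM and mt-Nd4 at 1809 ± 130 and 1675 ± 85.0 CPM in the wild-type libraries and mutant. The mitochondrial rRNAs mt-Rnr1 and mt-Rnr2 had log2 fold changes of 0.11 and 0.092, and mt-Rnr1 was at 0.052 without mutant replicate 1 and 0.17 without mutant replicate 2. In neither set was an unadjusted p under 0.05. Of the 85 cytosolic ribosomal proteins tested, 85 lay above 0, with a median of 0.20. In edgeR 60 of them were higher at an unadjusted p under 0.05, against 5.83% of all tested genes, and 0 passed over all genes. DESeq2 called 3 of the 85, and 329 of all 20646 tested genes. EdgeR without a filter on low counts called 15 of 86, and 527 of all 33271 genes in that fit. Rpl39 measured 519 ± 11.8 and 657 ± 85.2 CPM and Rps27 409 ± 16.7 and 505 ± 64.3 CPM. Nuclear respiratory chain and ATP synthase genes had a median of 0.13, with 72 of 81 above 0. At an unadjusted p under 0.05 in edgeR, 10 of them were higher and 0 lower, against 5.83% and 4.8% of all tested genes. Ndufb11 was at 49.9 ± 3.57 and 58.9 ± 5.32 CPM and Cox7c at 88.1 ± 3.00 and 102 ± 10.1 CPM.

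These lists share the pattern between libraries only in part. Cytosolic ribosomal proteins deviated by -0.13, -0.070 and -0.098 (log2) in wild-type replicates 1, 2 and 3 and by 0.27, 0.0027 and 0.020 in mutant replicates 1, 2 and 3. Their mutant medians all lay above their wild-type medians, which was not so for the mitochondrial ribosomal proteins. Without mutant replicate 1 the cytosolic median was 0.11 and that of nuclear respiratory chain genes 0.018. Without wild-type replicate 1 as well they were 0.096 and -0.035, the latter with 28 of 81 genes above 0. Without wild-type replicate 3 and mutant replicate 1 they were 0.11 and 0.075, the latter with 69 of 80 genes above 0. With the offset for length and GC content they were 0.12 and 0.049, and the median transcript lengths of these lists are 878 and 838 bases. The difference between the lists was not tested.

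Libraries held about 45194700 to 92151100 expected counts, and mutant replicate 1 was sequenced most deeply. Etv6 measured 454, 419 and 400 CPM in the wild-type libraries and 305, 341 and 386 CPM in the mutant, a log2 fold change of -0.30 (unadjusted p = 0.00506, adjusted p = 0.245, edgeR's quasi-likelihood test). Each mutant library was under each wild-type library, and an exact permutation test, two-sided, gave p = 0.1, the smallest possible with 3 against 3. The sorting markers Ly6a and Kit measured 85.8 ± 12.2 and 419 ± 33.04 CPM in the wild-type libraries and 78.2 ± 2.80 and 378 ± 23.5 CPM in the mutant (SD, n = 3). Genes listed as markers of other cell types were detected too, which does not by itself show that such cells were present. All listed markers passed the count filter. Called were 1 of 6 T and natural killer, 2 of 6 erythroid and 1 of 6 mast cell, basophil and eosinophil markers. Among all tested genes 0.266% were called. The 8 B-lineage markers summed to 105 to 138 CPM in the wild-type libraries and 147 to 327 CPM in the mutant, and the 6 neutrophil markers to 5183 to 7816 and 4021 to 5590 CPM. The 6 erythroid markers summed to 99.3 to 224 and 148 to 292 CPM, the 6 mast cell, basophil and eosinophil markers to 42.9 to 45.1 and 54.9 to 74.0 CPM, and the 6 macrophage and dendritic markers to 63.4 to 79.0 and 71.0 to 95.7 CPM. The 5 megakaryocyte markers summed to 49.8 to 75.6 and 51.3 to 70.8 CPM and the 6 T and natural killer markers to 3.79 to 7.67 and 7.09 to 12.7 CPM. Whether such cells were present, and their part in the values of the mitochondrial ribosomal protein genes, was not tested.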

How the data were processed

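For 6 LSK libraries cDNA was made from total RNA by SPIA amplification and sheared, per the labels' protocols, which name no strand-marking step. The authors deposited expected counts per gene, not scaled for library size. Trim Galore 0.60, STAR 2.7, RSEM 1.31 and build mm10 are named in the submitters' processing notes. The annotation release is not given in the sources used here. A further 92 spike-in rows, at 0 throughout, were left out.

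Counts were rounded, filtered with filterByExpr and scaled by TMM, and the genotype term was tested by quasi-likelihood in edgeR 4.0.16 (R 4.3.3), two-sided, with Benjamini-Hochberg adjustment over 20646 genes and a threshold of 0.05. Each SE was the fold change over the root of its F. Positions, lengths and GC content come from GENCODE M21 (GRCm38), with the longest transcript of the best APPRIS rank as principal transcript and 99.9% of tested genes matched. Promoters come from RefSeq (GRCm38.p6). The NRF1 and YY1 letters were shortened after results with longer forms had been seen. The scripts were tested on simulated data. No pair of libraries of 1 genotype was within sampling noise of each other (chi-square per gene 11.2 to 48.3).

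The members, lists, tests and naming rule were chosen with earlier results of these data known. The rule names members past the threshold, the 6 smallest p in each direction, the 3 highest and 3 lowest levels per kb, the Mrps18 paralogs, the sorting markers and Etv6, and up to 4 called genes of each list or else its 2 smallest p. Alternatives were DESeq2 1.42.0, limma-voom 3.58.1, RLE factors, library size alone, 2 other filters, unrounded counts, no mitochondrial genome genes, a replicate block, a length and GC offset (mgcv 1.9.3), and leaving out libraries.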

Additional observations from a re-analysis of the deposited data

How the results depend on the processing

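The count of 0 members past the adjusted threshold held in all 18 alternatives, where the smallest adjusted p of a member was 0.0772 (Mrps21, DESeq2). The number of all genes called was 55 and moved to 329 with DESeq2 and 527 without a filter on low counts. It ranged from 16 to 67 when a single library was left out. In settings added after the data were seen, it was 6 without wild-type replicate 1 and mutant replicate 1 together. It was 56 without wild-type replicate 3 and mutant replicate 1 together. The number of members at an unadjusted p under 0.05 was 3, and it was 1 with the length and GC offset and 1 to 6 with a single library left out (1 without wild-type replicate 2, 6 without mutant replicate 3). The members' median log2 fold change ran from -0.028 to 0.088 with a single library left out. This median was -0.060 without wild-type replicate 1 and mutant replicate 1 together and 0.019 without wild-type replicate 3 and mutant replicate 1 together. Etv6 passed without a filter on low counts (log2 fold change -0.30, adjusted p = 0.0111). Same-numbered libraries of the 2 genotypes did not deviate together (correlations -0.020, -0.025 and -0.085). The numbers were not used as pairs, but such values, from 3 libraries of each genotype, cannot exclude a pairing. A replicate block gave 32 called genes and 0 called members. Of the named genes other than Etv6, 746 values kept their side of the threshold and 6 crossed it, all of Myc, Rpl39 and Rps27. The cause of these changes was not tested. Member counts were at least 314 in each library.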
